A study of Xenopus tropicalis with 12 samples.

Results

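Gene expression was compared between embryos of the frog Xenopus tropicalis exposed to the naphthenic acid mixture labelled S2 and control embryos. The comparison used the 4 arrays labelled S2-1 to S2-4 and the 4 arrays labelled C-1 to C-4, which are 8 of the 12 arrays in the series. The other 4 arrays came from embryos exposed to a mixture labelled S1. Each array held Cy3-labelled total RNA of whole embryos aged 3 days after fertilization, and the labels give treatment as the only difference between groups. Per the design text, S1 and S2 are 2 batches of the same catalogue product. Neither the dose, the length of exposure, a solvent in the control medium nor the number of embryos per sample is given in the sources used here. Nothing states that samples came from separate clutches, so the p-values below measure only the spread between these samples, which may be technical.

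Naphthenic acids are carboxylic acids from petroleum, many of them with saturated rings and side chains, and are toxic constituents of the water left by oil sands extraction. Vertebrate embryos meet such compounds with oxidising enzymes of the cytochrome P450 families, with conjugating enzymes and with pumps that export the products. Carboxylic acids of this shape resemble fatty acids and bile acids, which are bound by nuclear receptors that control lipid genes. At this age a Xenopus embryo is a swimming larva with a beating heart, a pigmented eye with a lens, ciliated skin and a functioning pronephros, while the gut and liver are still forming.

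A probe entered the comparison when its signal cleared the background on 4 or more of these 8 arrays, which 28773 of 32899 probes (87.5%) did. Values are log2 signals on which 0 is the 75th percentile of the array, so they can be compared between arrays for 1 probe but not between probes. A gene symbol was found for 4552 of them, giving 4331 named genes. A further 849 matched a gene with only a placeholder name and 23372 (81.2%) matched no entry in the gene table. The number of arrays limits the precision, and the median 95% interval of a log2 change reached 0.32 to either side. All 16 tissue marker lists, from liver and lens to red blood cells, had members that passed this filter. Of their 226 measured genes 217 were above background on all 8 arrays, as were 26666 of the 28773 tested probes.

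The S2 embryos differed from controls at 1507 probes (5.24% of those tested; limma, adjusted p under 0.05), of which 724 (2.52%) were higher and 783 (2.72%) lower. Among the tested probes 34 were above background on all 4 control arrays and on no S2 array, and 6 of these were called. The reverse held for 1 probe, that of cxcl9, which was also called. Such calls came through 1 group alone and are not taken as support. Most changes were small. The median log2 change was 0.61 among the probes that rose and -0.63 among those that fell, and 148 rises and 106 falls were at least 2-fold. The far end was one-sided: 50 probes rose and 8 fell by at least 2 on the log2 scale, and 15 rose and 1 fell by at least 3. The 50 include the probe of cyp2f1 and 14 probes that read close to it, described below, which may not be separate measurements. Among the named genes 243 changed (5.61%), 108 upward (2.49%) and 135 downward (3.12%), and 58 of the 243 were read on probes with xhyb in their names, called cross-hybridising below, a reading of xhyb that no source used here defines. These shares stand beside the counts per gene list below. The lists were chosen with earlier results of these data known, so setting their counts against these shares is not a test. The 4 S2 and 4 control arrays did not overlap at 2198 probes that read higher (7.64%) and 2412 that read lower (8.38%), among them 1475 of the 1507 called. In bulk RNA of whole embryos, fewer cells of a type and less RNA per cell cannot be told apart.

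**Figure D1:**
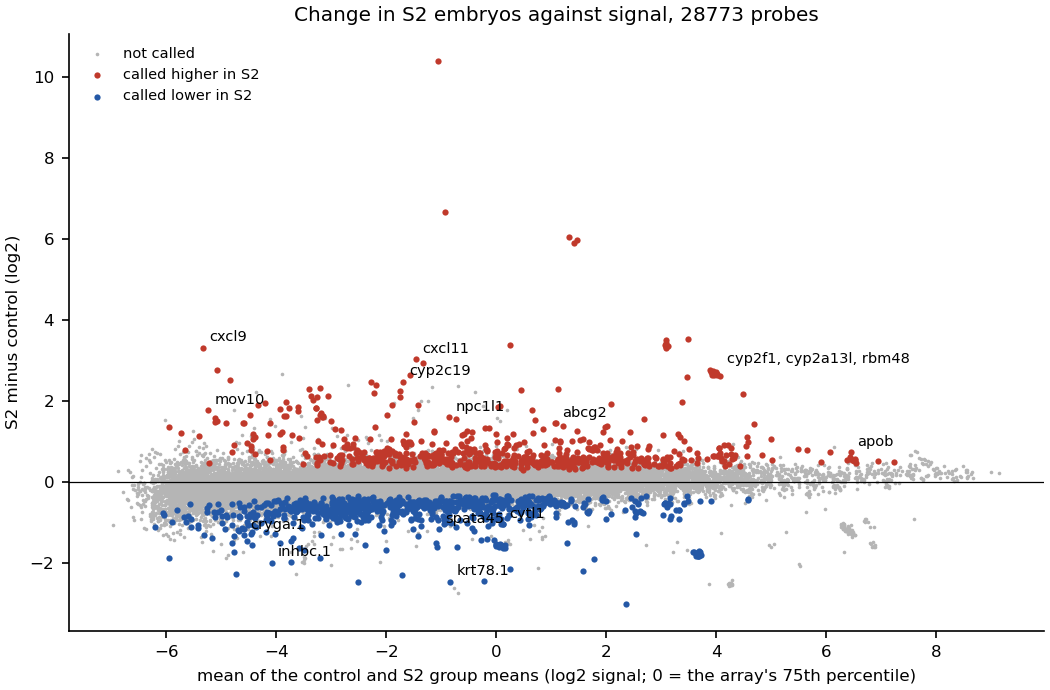
Log2 change in S2 against control (vertical axis) plotted over the mean log2 signal of both groups (horizontal axis, 0 is the array's 75th percentile) for the 28773 tested probes, with 724 called higher in red and 783 called lower in blue. The highest point, a measured difference of 10.39, has no gene match. Among named genes cxcl9 lies at 3.31 and krt78.1 at -2.46, and the first and cxcl9 were above background on 1 and 0 of 4 control arrays, so their heights rest on the background.

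Signal strength moved with the direction of change. In the dimmest 7194 probes 44 rose and 150 fell, and in the brightest 7193 probes 339 rose and 142 fell. The S2 arrays had a mean log2 signal of 6.84 ± 0.25 (SD, n = 4) and the control arrays 7.24 ± 0.37 (two-sided exact permutation p = 0.143, 0.214 adjusted over 3 measures), and 85.5% and 88.8% of probes were well above background on average (exact p = 0.0857, 0.214 adjusted). The part of this in the falls of dim probes was not tested. With the arrays' brightness as a covariate 769 probes passed. A normexp correction on the local backgrounds as measured left 29 calls (27 of them higher), among them the named genes cyp2f1, cyp2a13l and rbm48 but no other gene described below, and the same correction with outlying backgrounds replaced left 675 (418 higher). Leaving out single arrays left between 510 calls (without S2-1) and 1610 (without S2-4), with counts of 543 without S2-2, 632 without C-3, 816 without S2-3, 837 without C-4 and 857 without C-1. On the first principal component of the 8 arrays, which held 37.2% of the variance, the controls scored from -53.1 (C-3) to -13.6 and the S2 arrays from 5.89 (S2-4) to 47.0. S2-4 stood alone on the next component (-59.0). On the one after, C-3 (39.7) and C-1 (-33.3) lay at opposite ends. Without S2-4 and C-3, 706 probes passed.

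The enzymes of cytochrome P450 families 1 to 4 oxidise foreign compounds among others, and 5 of the 38 listed genes were measured. Of these 5, 3 rose in S2 embryos (2.49% of all named genes did) and 2 did not pass. The median was 2.48, against -0.05 over all named genes, and the same 3 rose without C-3 and S2-4. The rises of cyp2f1 and cyp2a13l may not be separate measurements, as described below, so the count of 3 may repeat 1 signal. The probe of cyp2c19, a family 2 monooxygenase, read -3.13, -2.91, -2.70 and -3.02 on C-1 to C-4 and -0.32, -0.32, -0.53 and -0.68 on S2-1 to S2-4. All S2 values lay above all control values by more than 2 units, and the change was 2.48 ± 0.12 (SE, n = 4 arrays per group, adjusted p = 1.2e-07), or 5.57-fold. The cyp2f1 probe read 2.56, 2.56, 2.59 and 2.95 on the control arrays and 5.51, 5.48, 5.24 and 5.14 on the S2 arrays, a rise of 2.68 (95% interval 2.41 to 2.94, adjusted p = 5.55e-08). For cyp2a13l the rise was 2.67 (2.42 to 2.93, adjusted p = 4.26e-08).

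The probes of cyp2f1 and cyp2a13l are of the cross-hybridising kind, and so is that of rbm48, a gene of an RNA-binding protein, which rose by 2.64 (2.41 to 2.88, adjusted p = 2.84e-08). In the gene table cyp2f1 and cyp2a13l lie close together in a group of cyp2 genes, whereas rbm48 lies on another chromosome. Within 0.5 log2 of the cyp2f1 probe lay 14 others, all cross-hybridising, 12 of them without a gene symbol. All 14 rose, by 2.62 to 2.77, with cyp2a13l and rbm48 among them. The 14 were picked for reading close to the cyp2f1 probe, so their similar rises are not taken as support. Whether these probes bound the same transcripts was not tested, so their rises may not be separate measurements.

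Among 14 efflux and organic ion transporters 1 gene rose (2.49% of all named genes did) and none fell (median 0.16). It was abcg2, the gene of an efflux pump of the plasma membrane. Its probe read 0.49, 0.41, -0.00 and 0.53 in controls and 1.84, 1.77, 1.83 and 1.81 in S2. The S2 arrays spanned less than 0.1, well above every control array, and the rise was 1.46 (1.15 to 1.77, adjusted p = 0.000124), or 2.75-fold. por, the reductase that passes electrons to microsomal P450 enzymes, rose by 0.46 (0.23 to 0.69, adjusted p = 0.0293). Its arrays did not overlap, but it passed in 2 of 8 sets with 1 array left out (those without C-2 and without S2-4; adjusted p = 0.0304 to 0.0835).

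The alcohol dehydrogenase genes adh1a and adh7, whose products oxidise alcohols including retinol, rose by 1.00 (0.70 to 1.29, adjusted p = 0.00175) and 0.98 (0.57 to 1.40, adjusted p = 0.0154). The adh1a probe read 3.04, 3.13, 2.46 and 3.05 in controls and 3.95, 3.90, 4.01 and 3.81 in S2. The adh7 call was lost without S2-1 (adjusted p = 0.0507). hsd17b2, whose product inactivates oestradiol and testosterone, rose by 0.89 (0.66 to 1.12, adjusted p = 0.000611), from -1.13, -1.0, -1.15 and -0.97 in controls to -0.07, -0.06, -0.40 and -0.16 in S2. None of 6 measured conjugation enzymes, of 47 listed, passed (median 0.12). Nor did cyp1b1, a classic target of the aryl hydrocarbon receptor, at 0.08 (-0.20 to 0.37, adjusted p = 0.757, cross-hybridising), or hmox1, a target of oxidative stress signalling, at -0.14 (-0.43 to 0.14, adjusted p = 0.568). No probe matched the symbols of the other chosen targets cyp1a1, cyp3a4, nqo1 and dio3. Since 81.2% of tested probes matched no gene, these genes could not be identified, and whether an unmatched probe read them is unknown.

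**Figure D2:**
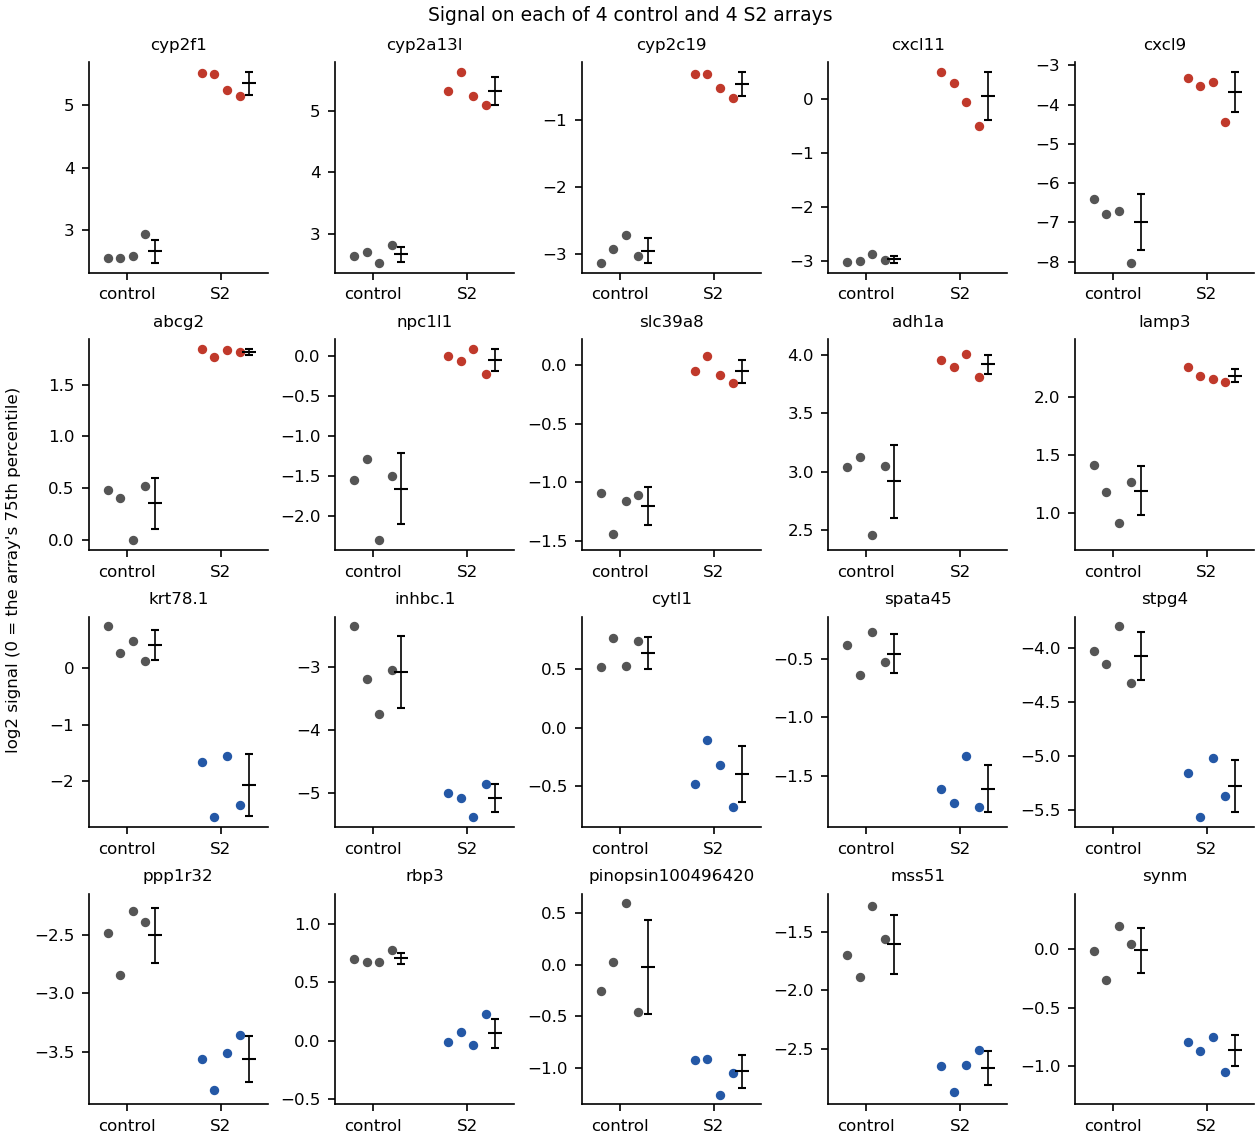
Log2 signal (0 is the array's 75th percentile) of 10 genes that rose (red) and 10 that fell (blue) in S2, with each array as a point, controls in grey, and the group mean ± SD beside the points. In every panel the 4 S2 arrays lie on one side of the 4 control arrays, as the rule for the largest changes required of all but rbp3 and synm.

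The chemokine genes cxcl9 and cxcl11 rose. In mammals their products are induced by interferon and attract T cells. The cxcl11 probe read -3.02, -3.0, -2.87 and -2.98 in controls and 0.49, 0.29, -0.05 and -0.51 in S2. The rise was 3.02 (2.36 to 3.69, adjusted p = 0.000164), or 8.13-fold. The probe of cxcl9 exceeded background on 0 of 4 control arrays and on 4 of 4 S2 arrays, where it read -3.33, -3.52, -3.42 and -4.44. It was thus tested through the S2 arrays alone, so its call (limma adjusted p = 0.000535) is not taken as support. The measured signals differed 9.93-fold. With control signals raised where they lay under the lowest signal above background on the array, the difference was 9.75-fold. Neither value is a lower limit, and both rest on the background. After normexp with outlying backgrounds replaced the change of cxcl9 was 0.98 (adjusted p = 0.00927) and that of cxcl11 was 2.44 (adjusted p = 8.2e-05). Both genes lie beside cxcl10 in the gene table, in 1 cluster.

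Of 20 measured interferon response and chemokine genes, 3 rose (2.49% of all named genes did) and none fell (median 0.33), and 2 rose without C-3 and S2-4. The 3 include cxcl9, which was tested through the S2 arrays alone. Only 11 of the 20 were well above background on all 8 arrays, and the list median was 0.81, 0.45 and 0.12 on slides 1 to 3. Beside cxcl9 and cxcl11 the third rise was that of mov10, an RNA helicase gene. Its probe cleared the background on 2 of 4 control arrays and 4 of 4 S2 arrays, and read 1.77 higher (1.05 to 2.50, adjusted p = 0.0127). Its call was lost after normexp with outlying backgrounds replaced (0.53, adjusted p = 0.187) and without C-3 and S2-4 (adjusted p = 0.061). Of 9 leucocyte markers only mpo, the peroxidase of neutrophil granules, passed, at 0.58 (0.25 to 0.91, adjusted p = 0.0481). It did so in 1 of 8 sets with 1 array left out, that without C-2 (adjusted p = 0.0254 to 0.139). None of 10 red blood cell markers passed (median -0.03).

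Of 15 measured lipoprotein and lipid transport genes 6 rose and none fell (median 0.16), against 2.49% of all named genes that rose. The list was chosen with earlier results of these data known, so this is not a test. The largest rise was that of npc1l1, which encodes a protein that takes up sterols at the gut surface. It read -1.54, -1.28, -2.30 and -1.50 in controls and -0.00, -0.06, 0.09 and -0.23 in S2, a rise of 1.60 (1.1 to 2.11, adjusted p = 0.00272), or 3.04-fold. amn and lrp2, whose products take part in the uptake of proteins and vitamins by kidney tubules and other epithelia, rose by 0.78 (0.45 to 1.11, adjusted p = 0.0152) and 0.58 (0.33 to 0.83, adjusted p = 0.0164). apob, the structural protein of low-density and very-low-density lipoproteins, rose by 0.73 (0.35 to 1.11, adjusted p = 0.0331). ldlr, the low-density lipoprotein receptor, rose by 0.52 (0.31 to 0.74, adjusted p = 0.0141) and scarb1, a receptor for high-density lipoprotein, by 0.36 (SE 0.10, adjusted p = 0.0481; outside the rule for named genes, and given to complete the 6).

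These calls were not equally stable. Without C-3 and S2-4, 2 of the 15 rose, and with array brightness as a covariate also 2. The npc1l1 and amn calls held in all 8 sets with 1 array left out. The ldlr call was lost without S2-1 (adjusted p = 0.0532), that of lrp2 without C-3 or S2-1 (up to 0.0582) and that of apob without C-1, S2-1, S2-2 or S2-3 (up to 0.0949). For npc1l1 the control array C-3 was lowest, at -2.30, and C-3 was also lowest for apob (5.5 against 6.15 to 6.41).

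me1, a cytosolic enzyme that supplies NADPH for fatty acid synthesis, rose by 0.57 (0.27 to 0.88, adjusted p = 0.036). Of the 8 sets with 1 array left out it passed only in that without C-2 (adjusted p up to 0.0961). Of 25 measured genes of fatty acid oxidation and targets of PPAR, the fatty acid receptors, 3 rose (2.49% of all named genes did) and none fell (median 0.26). They were angptl4, which encodes an inhibitor of lipoprotein lipase (0.56, 0.26 to 0.85, adjusted p = 0.0362), abcd3, a carrier of the peroxisome membrane (0.53, 0.24 to 0.81, adjusted p = 0.0386), and acad8, an enzyme of valine breakdown (0.36, 0.20 to 0.53, adjusted p = 0.0213). Each passed in 2 or 3 of the 8 sets with 1 array left out (angptl4 without C-1 or S2-4, abcd3 without C-2 or S2-4, acad8 without C-1, C-2 or S2-4; adjusted p up to 0.107), and 0 of 25 passed without C-3 and S2-4. Of 6 bile acid genes 1 rose and 1 fell (2.49% and 3.12% of all named genes did). nr1h4, the bile acid receptor FXR, rose by 0.49 (0.23 to 0.74, adjusted p = 0.0338). klb, a co-receptor for hormones of the fibroblast growth factor family, fell by 0.41 (-0.63 to -0.18, adjusted p = 0.046). nr1h4 passed only without C-1 or S2-4 (adjusted p up to 0.0929) and klb only without S2-3 (up to 0.14).

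The other large rises had varied roles. slc39a8, which encodes a zinc and manganese importer, read -1.09, -1.44, -1.16 and -1.11 in controls and -0.05, 0.08, -0.08 and -0.15 in S2, a rise of 1.15 (0.86 to 1.44, adjusted p = 0.000511). lamp3, a lysosomal membrane protein gene, rose by 0.98 (0.74 to 1.22, adjusted p = 0.000372), with every S2 array between 2.13 and 2.26 and the controls between 0.92 and 1.41. entpd5, an enzyme of the endoplasmic reticulum that hydrolyses nucleotides, rose by 1.21 (0.85 to 1.57, adjusted p = 0.00171), and bco1, which cleaves beta-carotene to retinal, by 1.17 (0.75 to 1.58, adjusted p = 0.00571). Within S2 the bco1 probe was lowest on S2-4, at 3.00 against 3.65 to 3.95 on the other arrays.

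arsa.2, of the arylsulfatase A family of lysosomal enzymes, rose by 1.53 (0.89 to 2.17, adjusted p = 0.0143), a call that was lost without S2-1 or S2-2 (adjusted p up to 0.0516). adm2, which encodes a peptide related to adrenomedullin, rose by 1.05 (0.64 to 1.46, adjusted p = 0.0103), and gramd2a by 0.95 (0.54 to 1.36, adjusted p = 0.0171). The gramd2a call was lost without C-3, S2-1 or S2-2 (up to 0.0567). Of 18 liver markers 3 rose (2.49% of all named genes did) and none fell (median 0.04). The 3 were apob, plg and kng1. plg, which encodes plasminogen, rose by 0.82 (0.50 to 1.15, adjusted p = 0.0104), and kng1, the kininogen gene, by 0.86 (0.47 to 1.25, adjusted p = 0.0196). The kng1 call was lost without C-3, S2-1, S2-2 or S2-3 (up to 0.0594). Without C-3 and S2-4 together 1 liver marker rose, apob (adjusted p = 0.0444), and plg did not pass (adjusted p = 0.0584). The other 15 liver markers did not pass.

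The falls were led by a keratin and a growth factor gene. krt78.1, a keratin of surface epithelia, read 0.73, 0.26, 0.46 and 0.12 in controls and -1.65, -2.63, -1.54 and -2.41 in S2. Every S2 array lay below every control array by more than 1 unit, and krt78.1 fell by 2.46 (-3.03 to -1.88, adjusted p = 0.00025), or 5.49-fold. krt78.3 fell by 0.52 (-0.80 to -0.25, adjusted p = 0.035) on a cross-hybridising probe, and passed only without C-2 or S2-4 (up to 0.0965). These were the 2 that fell among 12 epidermis and keratin genes (median -0.32), beside 3.12% of all named genes, and 1 fell without C-3 and S2-4. inhbc.1, which encodes a subunit of activins and inhibins of the TGF-beta family, read -2.36, -3.20, -3.75 and -3.05 in controls and -4.99, -5.07, -5.38 and -4.86 in S2, a 3.97-fold lower signal (-1.99, -2.52 to -1.45, adjusted p = 0.000772). It did not pass after normexp with outlying backgrounds replaced (-0.62, adjusted p = 0.084).

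Of 15 photoreceptor and retina markers 4 fell (3.12% of all named genes did) and none rose (median -0.25), and 2 fell without C-3 and S2-4. rbp3, which carries retinoids between photoreceptors and pigment epithelium, read 0.70, 0.68, 0.67 and 0.77 in controls and -0.02, 0.08, -0.04 and 0.23 in S2, a fall of 0.64 on the log2 scale (-0.84 to -0.45, adjusted p = 0.00211). The pineal photopigment gene pinopsin100496420 read -0.26, 0.02, 0.59 and -0.45 in controls and -0.92, -0.91, -1.25 and -1.04 in S2 (-1.01, -1.42 to -0.59, adjusted p = 0.0128). rom1, a protein of photoreceptor discs, fell by 0.53 (-0.77 to -0.30, adjusted p = 0.0187), and gucy2f, a guanylate cyclase of photoreceptors, fell by 0.48 (-0.74 to -0.22, adjusted p = 0.0389). The rom1 call was lost without C-3, C-4, S2-1 or S2-3 (up to 0.0565) and gucy2f passed only without C-2 (up to 0.115).

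Lens genes showed the widest scatter between the S2 arrays. Of 9 lens markers cryga.1 passed, falling by 1.31 (-2.04 to -0.57, adjusted p = 0.0455), and 8 did not (median -1.31). cryga.1 passed in 1 of 8 sets with 1 array left out, that without S2-3 (up to 0.131), and not after normexp with outlying backgrounds replaced (adjusted p = 0.728). Without C-3 and S2-4, 4 of the 9 fell, but cryga.1 was not among them (adjusted p = 0.177). The gene table holds a larger gamma crystallin family, of structural proteins of the lens, which was added after its values were seen. Of its 25 measured genes, 20 of them on cross-hybridising probes, 23 read lower in S2 and 1 passed (median -1.17, against -0.05 over all named genes). Without C-3 and S2-4 also 1 of the 25 fell. Whether these probes bound the same transcripts was not tested, so the 23 may not be separate measurements. Averaged over the 25, the control arrays read 4.38, 4.21, 4.13 and 4.64 and the S2 arrays 2.88, 1.99, 3.94 and 4.09. All 4 S2 values were below the controls, but S2-3 and S2-4 by little and S2-1 and S2-2, which share a slide with C-1, by far more. Of 4 measured crystallin genes outside the gamma family none passed, and all 4 read lower (median -0.41, from -0.75 to -0.01). Without C-3 and S2-4, 1 of these 4 fell. The beta crystallin genes cryba2 and cryba1.2 read -0.75 (adjusted p = 0.0944) and -0.66 (adjusted p = 0.204).

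Of 19 skeletal muscle markers 6 fell (3.12% of all named genes did) and none rose (median -0.19), 18 read lower in S2, and 3 fell without C-3 and S2-4. The median of all named genes was also negative, at -0.05. mss51, a mitochondrial protein gene of skeletal muscle in mammals, read -1.70, -1.89, -1.28 and -1.57 in controls and -2.65, -2.87, -2.64 and -2.51 in S2 (-1.06, -1.45 to -0.67, adjusted p = 0.00761). synm, an intermediate filament protein of muscle, fell by 0.86 (-1.15 to -0.57, adjusted p = 0.00467), and ampd1, the AMP deaminase of muscle, fell by 0.80 (-1.10 to -0.49, adjusted p = 0.0087). The calls of these 3 held in all 8 sets with 1 array left out.

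The other 3 muscle calls were less stable. pvalb, a calcium buffer of fast fibres, fell by 0.95 (-1.42 to -0.47, adjusted p = 0.0294) and passed only without C-4 or S2-4 (up to 0.0877). lrrc14b fell by 1.1 (-1.72 to -0.49, adjusted p = 0.0444) and passed only without C-2 or C-4 (up to 0.129). Its control arrays ran from -3.65 to -2.0. fbxo32, the ubiquitin ligase atrogin-1, fell by 0.64 (-0.98 to -0.30, adjusted p = 0.0371), with S2-4 at -0.82 and the other S2 arrays near -0.24, and passed in 0 of the 8 sets (adjusted p = 0.0548 to 0.108). None of 4 heart muscle markers passed (median -0.04).

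Of 40 measured markers of multiciliated cells and cilia 6 fell and none rose (3.12% of all named genes fell), 33 read lower in S2 (median -0.23), and 4 fell without C-3 and S2-4. Of the 6, spata45, stpg4 and ppp1r32 passed without these arrays and lrrd1, ift88 and morn3 did not, so the 4 include another gene. The median of all named genes was also negative, at -0.05. The list was chosen with earlier results of these data known, so these counts are not a test. spata45 read -0.38, -0.64, -0.27 and -0.53 in controls and -1.61, -1.74, -1.33 and -1.76 in S2 (-1.16, -1.42 to -0.89, adjusted p = 0.000208). stpg4 fell by 1.2 (-1.50 to -0.91, adjusted p = 0.0004) and ppp1r32 fell by 1.06 (-1.41 to -0.71, adjusted p = 0.00394). These 3 calls held in all 8 sets with 1 array left out. The other 3 calls were less stable. One was ift88, a core protein of transport along the cilium. It fell by 0.45 (-0.68 to -0.23, adjusted p = 0.029) and passed only without C-1, C-2 or S2-4 (up to 0.0931). morn3 fell by 0.69 (-1.02 to -0.36, adjusted p = 0.0253), a call lost without C-1, C-3, S2-1 or S2-2 (up to 0.083), and lrrd1 fell by 1.16 (-1.79 to -0.53, adjusted p = 0.0394) and passed only without S2-4 (up to 0.115). After normexp with outlying backgrounds replaced 1 of the 40, spata45, passed (-0.95, adjusted p = 0.00028).

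Among cartilage and bone markers 3 of 10 fell (3.12% of all named genes did) and none rose (median -0.27), and 1 fell without C-3 and S2-4. cytl1, a factor secreted by cartilage cells, read 0.52, 0.77, 0.53 and 0.75 in controls and -0.48, -0.11, -0.32 and -0.67 in S2 (-1.04, -1.36 to -0.71, adjusted p = 0.00275). vcan, the matrix proteoglycan versican, fell by 0.43 (-0.65 to -0.21, adjusted p = 0.033) on a cross-hybridising probe, and fgfbp2 fell by 0.63 (-0.98 to -0.29, adjusted p = 0.0418). Both passed only without S2-4 (up to 0.101 and 0.123). emilin3, an extracellular protein of the notochord, fell by 0.48 (-0.73 to -0.23, adjusted p = 0.0325) and passed only without C-2 or S2-4 (up to 0.0991).

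The calls in the next lists were few, beside the 3.12% of all named genes that fell, and nothing is read from 1 gene about a tissue. Of 7 neural crest and pigment cell markers 2 fell (median -0.34), and 0 without C-3 and S2-4. They were mlana, a melanosome protein gene (-0.49, adjusted p = 0.0426, lost in all 8 sets with 1 array left out, adjusted p = 0.0689 to 0.111), and cnp, an enzyme of myelin-forming cells (-1.13, adjusted p = 0.0205, which passed without C-2, C-4 or S2-4 with up to 0.0594 otherwise). gldn, whose product organises the nodes of myelinated nerves, fell by 1.02 (-1.46 to -0.58, adjusted p = 0.0171), and kif5c, a kinesin motor of neurons, fell by 0.86 (-1.21 to -0.50, adjusted p = 0.014), as the only one of 17 neuron markers. The gldn call was lost without C-3 or S2-1 (up to 0.0582). ctrb1, the digestive enzyme precursor chymotrypsinogen, fell by 1.01 (-1.48 to -0.55, adjusted p = 0.0207) on a cross-hybridising probe, as the only one of 9 gut and pancreas markers, and passed only without C-2, S2-3 or S2-4 (up to 0.0671). After normexp with outlying backgrounds replaced cnp, gldn, kif5c and ctrb1 did not pass.

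In the kidney list of 30 genes 2 rose, lrp2 and amn, and 1 fell, beside 2.49% and 3.12% of all named genes. Nothing is read from these counts about the kidney. The fall was that of slc4a11, a membrane transporter gene, by 0.82 (-1.25 to -0.39, adjusted p = 0.0334). It passed only without C-2 or S2-4 (up to 0.0993). The remaining large falls were in genes with less defined roles here. atp13a-like fell by 1.51 (-2.07 to -0.96, adjusted p = 0.00741) and c4orf45 fell by 1.02 (-1.44 to -0.60, adjusted p = 0.0131), both on dim probes. Neither passed after normexp with outlying backgrounds replaced (adjusted p = 0.665 and 0.926). slc49a4 fell by 1.12 (adjusted p = 0.0287), rnasek fell by 0.94 (adjusted p = 0.0265) and ccdc24 fell by 0.92 (adjusted p = 0.0475). The ccdc24 probe was above background on 4 control and 2 S2 arrays. slc49a4 passed only without C-3 or S2-4 (up to 0.0793), rnasek without C-2, C-4 or S2-4 (up to 0.0826) and ccdc24 without C-1 or S2-4 (up to 0.137).

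Stress and hormone genes differed by list, beside 2.49% of all named genes that rose and 3.12% that fell. Of 8 sex steroid and oestrogen genes 1 rose, hsd17b2, and 1 fell, inhbc.1, both described above. Of 12 genes of endoplasmic reticulum stress, atf6, a sensor of unfolded proteins, rose by 0.70 (0.39 to 1.00, adjusted p = 0.0171), and chac1, an enzyme that degrades glutathione, fell by 0.58 (-0.84 to -0.31, adjusted p = 0.0207). The atf6 call was lost without C-3 or S2-1 (up to 0.057), chac1 passed only without C-2, S2-3 or S2-4 (up to 0.0713), and neither passed without C-3 and S2-4. Of 7 glucocorticoid and stress axis genes 1 rose, oxt, of the oxytocin family of neuropeptides (0.47, 0.20 to 0.74, adjusted p = 0.0475). In the sets with 1 array left out it passed only without S2-3 (adjusted p up to 0.138). No member passed among 12 heat shock and metallothionein genes (median 0.04) or 4 measured oxidative stress genes of 44 listed (0.13). The same held for 7 p53 and DNA damage genes (-0.09), 13 cell cycle genes (-0.08) and 11 thyroid hormone genes (-0.17). The vitellogenin gene vtga2, an egg yolk protein induced by oestrogen, read 0.09 (-0.60 to 0.77, adjusted p = 0.901), and thrb, a thyroid hormone receptor whose probe was above background on 3 control and 1 S2 array, -0.17 (-0.99 to 0.66, adjusted p = 0.836). These intervals are wide, and changes within them were not detectable with 4 arrays per group.

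**Figure D3:**
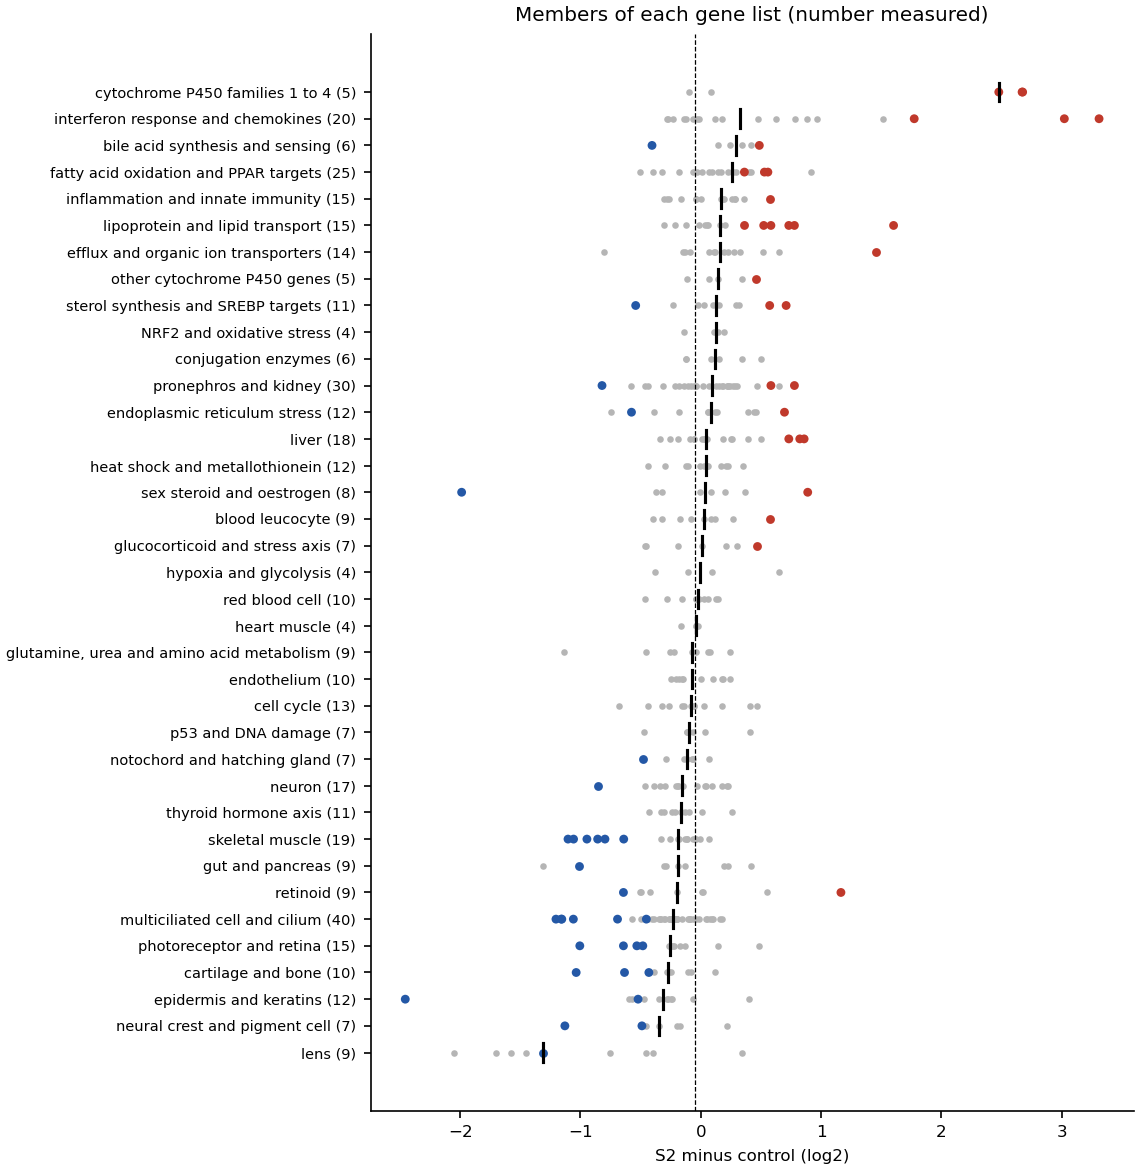
Log2 change in S2 against control (horizontal axis) of each measured member of the 37 gene lists (1 row per list, number measured in brackets), with rises that passed in red, falls that passed in blue, other members in grey, list medians as black bars and the median of all named genes, -0.05, as a dashed line. The P450 list lies furthest right with a median of 2.48 and the lens list furthest left at -1.31, where 1 of 9 members passed.

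Most of the largest changes on the arrays were at probes that no gene could be matched to, as were most tested probes. Of the 50 probes that rose by at least 2 on the log2 scale 37 had no match, 7 matched a placeholder gene and 6 a gene with a symbol. Of all tested probes 81.2% had no match, 2.95% matched a placeholder gene and 15.8% a gene with a symbol. A missing match is thus not particular to the large changes. The 14 probes close to that of cyp2f1, 12 of them without a symbol, are among the 50 and may repeat 1 signal. The probe GT_EA519_mRNA_specific_001556 read -5.34, -7.71, -5.95 and -5.99 in controls, where 1 of 4 arrays was above background, and 4.22, 4.41, 4.03 and 3.89 in S2. The measured difference was 10.39 (adjusted p = 1.95e-08), but its size rests on the background of the 3 other control arrays, and it was 7.29 after normexp with outlying backgrounds replaced and 5.1 with the backgrounds as measured (adjusted p = 0.00667). GT_EA519_mRNA_specific_007084 rose by 6.66 (adjusted p = 1.31e-08), from between -4.40 and -3.97 to between 2.04 and 2.87, and GT_EA519_mRNA_xhyb_005106 by 5.96 (adjusted p = 1.95e-08).

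Among the falls, 7 of the 8 probes that fell by at least 2 had no match, beside 81.2% of all tested probes. GT_EA519_mRNA_specific_003840 read 3.96, 3.95, 3.68 and 3.86 in controls and 0.94, 1.03, 1.24 and 0.23 in S2, a change of -3.0 ± 0.26 (adjusted p = 3.92e-05). GT_EA519_mRNA_xhyb_002872 changed by -2.47 (adjusted p = 3.44e-06) and GT_EA519_mRNA_xhyb_008370 by -2.43 (adjusted p = 0.000416). All 6 of these probes kept their calls in all 8 sets with 1 array left out and after normexp with outlying backgrounds replaced. With the backgrounds as measured, calls were lost for GT_EA519_mRNA_specific_007084 (3.46, adjusted p = 0.0506), GT_EA519_mRNA_xhyb_002872 (-0.67) and GT_EA519_mRNA_xhyb_008370 (-1.36, adjusted p = 0.466).

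Whether S2 acted differently from S1 was tested directly, over the same 28773 probes. No probe passed (0%; limma, lowest adjusted p = 0.0677), 2125 (7.39%) had an unadjusted p under 0.05, and the median 95% interval of the difference reached 0.32 to either side. Against the same control arrays S1 changed 634 probes (2.2%), 416 upward and 218 downward. The controls are shared, so the changes are given side by side only. The change of cyp2c19 was 2.48 in S2 and 2.27 in S1, a difference of 0.21 (-0.06 to 0.47), that of abcg2 1.46 and 1.52 (-0.06, -0.37 to 0.25) and that of cxcl11 3.02 and 3.01 (0.01, -0.65 to 0.68). For npc1l1 the changes were 1.60 and 1.32 (0.28, -0.22 to 0.79).

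Wider gaps stood among the falls. inhbc.1 changed by -1.99 in S2 and -0.86 in S1, a difference of -1.13 (-1.67 to -0.60), which did not pass (adjusted p = 0.38). krt78.1 changed by -2.46 and -1.85 (-0.61, -1.19 to -0.04, adjusted p = 0.675), and stpg4 by -1.2 and -0.71 (-0.49, -0.79 to -0.20, adjusted p = 0.516). fgfbp2 changed by -0.63 and -0.05 (-0.58, -0.93 to -0.24, adjusted p = 0.516). The unadjusted interval of the difference lay off 0 for 1 of the 20 largest rises, entpd5 (0.49, 0.13 to 0.85, adjusted p = 0.611), and for 8 of the 20 largest falls. These genes were taken for the size of their S2 change, which favours a larger value in S2, and a difference that missed the threshold does not show that the mixtures acted alike.

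**Figure D4:**
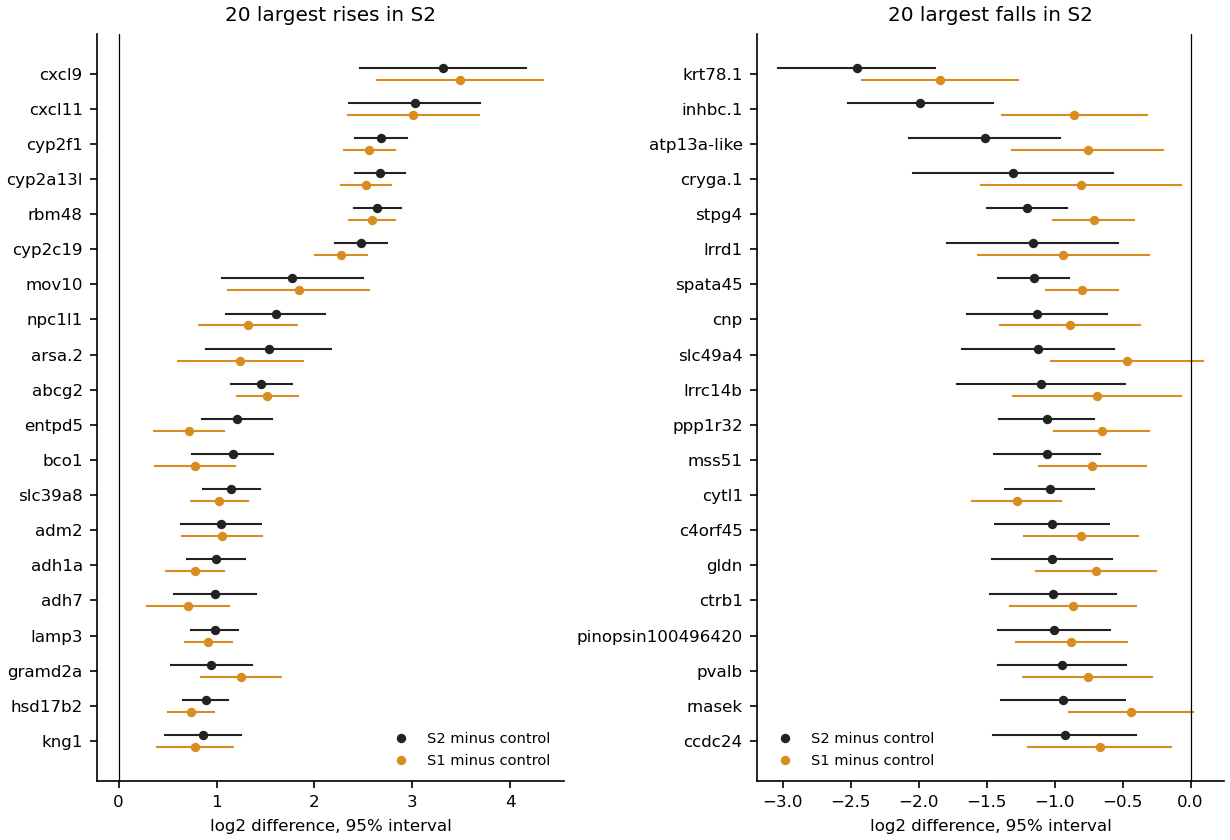
Log2 difference from control with its 95% interval (horizontal axis) in S2 (black) and S1 (orange) for the 20 largest rises and the 20 largest falls in S2. The pairs lie close for cxcl11 (3.02 and 3.01) and abcg2 (1.46 and 1.52) and furthest apart for inhbc.1 (-1.99 and -0.86), where the difference did not pass.

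The 12 arrays lay on 3 slides of 4, and each slide held both groups (1 control and 2 S2 arrays on slide 1, 1 of each on slide 2, 2 controls and 1 S2 array on slide 3). Where the S2 and control arrays do not overlap, the direction within every slide is fixed, so only sizes are given, each from 3 or fewer arrays. krt78.1 changed by -2.88, -1.81 and -2.71 on slides 1 to 3, cyp2c19 by 2.81, 2.38 and 2.18, and bco1 by 1.52, 1.32 and 0.45. For the gamma crystallin family the medians were -2.0, -0.18 and -0.33. With slide as a block 1102 probes passed, among them 55 of the 71 genes, all 20 of the largest rises and 16 of the 20 largest falls. The 16 genes that did not pass were cryga.1, lrrd1, lrrc14b, rnasek, por, angptl4, abcd3, me1, apob, nr1h4, klb, gucy2f, vcan, fgfbp2, krt78.3 and morn3 (adjusted p up to 0.0889).

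**Figure D5:**
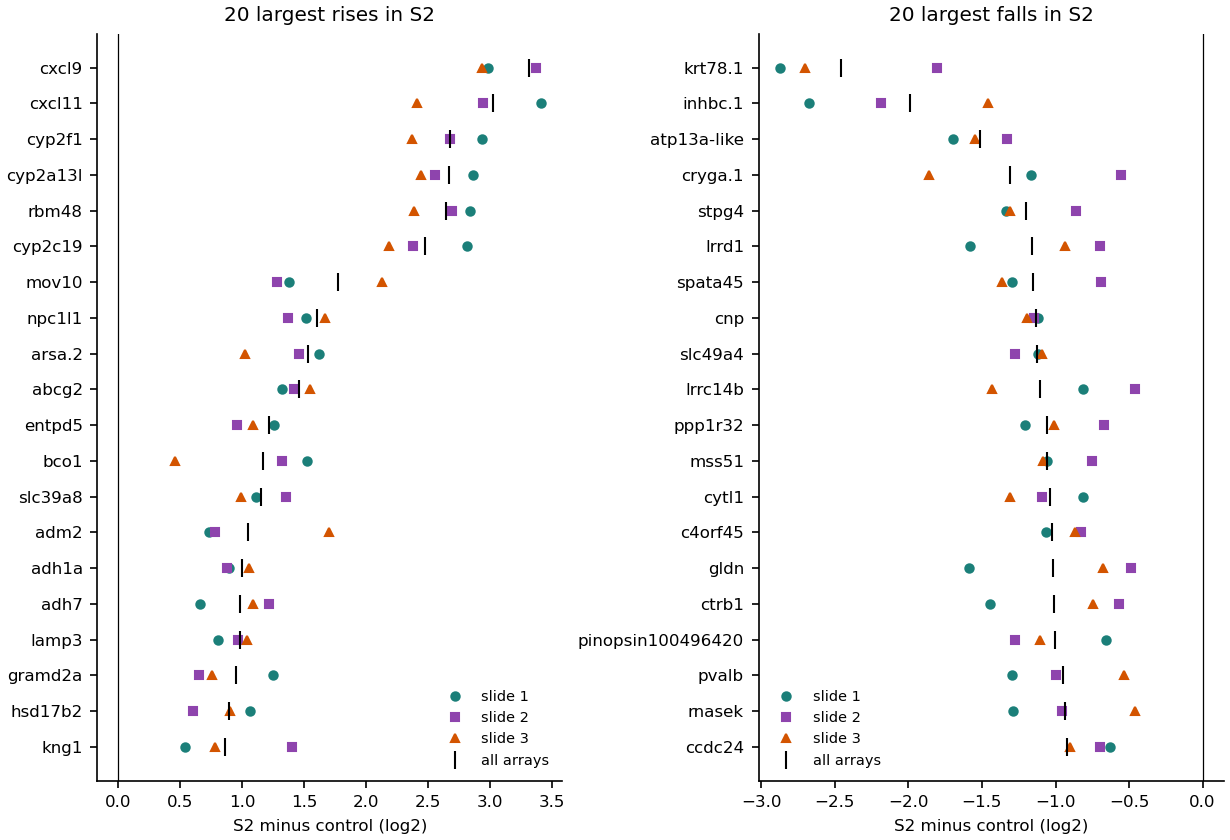
Log2 change in S2 against control (horizontal axis) within slide 1 (circles), slide 2 (squares) and slide 3 (triangles), with black bars for all arrays, for the 20 largest rises and the 20 largest falls. These genes were taken without overlap between groups, so every slide value must lie on the same side of 0 as the bar. The values closest to 0 are bco1 on slide 3 (0.45), lrrc14b on slide 2 and rnasek on slide 3 (both -0.46).

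Other settings ended the calls of further genes. After normexp with outlying backgrounds replaced 37 of the 71 genes passed, among them 19 of the 20 largest rises and 8 of the 20 largest falls. Besides those given above, calls were lost for ldlr, amn, me1, angptl4, abcd3, acad8, nr1h4, klb, mpo, oxt, chac1, gucy2f, lrrc14b, fbxo32, lrrd1, stpg4, ppp1r32, ift88, morn3, vcan, fgfbp2, slc4a11, emilin3, mlana and ccdc24. With array brightness as a covariate 42 of the 71 passed (18 and 12 of the largest rises and falls). The 29 that did not were mov10, gramd2a, ldlr, amn, apob, angptl4, abcd3, acad8, nr1h4, klb, atf6, oxt, mpo, cryga.1, gucy2f, pvalb, fbxo32, lrrd1, morn3, vcan, fgfbp2, emilin3, krt78.3, mlana, cnp, gldn, ctrb1, slc49a4 and rnasek (adjusted p up to 0.15). The rises of cxcl11, cyp2f1, cyp2a13l, cyp2c19, rbm48, npc1l1, abcg2, entpd5, bco1, slc39a8, adm2, adh1a, lamp3, hsd17b2 and plg passed in both settings, with slide as a block and in all 8 sets with 1 array left out. So did the falls of krt78.1, spata45, mss51, cytl1, pinopsin100496420, rbp3, synm and ampd1. The rise of cxcl9 passed too, but that probe was tested through the S2 arrays alone. Without C-3 and S2-4 together the plg call was lost (adjusted p = 0.0584).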

How the data were processed

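Per the file headers, Agilent Feature Extraction 11.0.1.1 read the authors' scans, and JGI 4.1 is the build of the array design. Each deposited processed signal is a linear intensity. The authors' deposited value table is in log2 units and equals the quantile-normalized processed signal. Each array holds 45220 features, 1417 of them control spots, and 32899 distinct probes. Here values were log2 intensity minus that array's 75th percentile (control spots excluded). The 176 outlier spots of the 8 arrays were left out unless a probe had no other, and spots of a probe were averaged. Depth does not apply to arrays, whose number limits the precision.

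Groups were compared in 1 limma 3.58.1 fit (R 4.3.3) over all 12 arrays, with S1 adding to the estimated spread, and Benjamini-Hochberg adjustment over 28773 probes. The fit was tested on simulated data. An array counted as above background if any spot of the probe did. The 9.75-fold of cxcl9 sets the S2 mean against the mean over control arrays of the lowest signal well above background on that array or the probe's own signal, whichever is higher. On C-1 to C-3 this was the probe's own signal, so the value is not a lower bound. Alternatives covered background, scaling, filters, blocks, weights, the threshold and left-out arrays; normexp (offset 50) used median spot signals, since the files hold no mean signal, where a mean had been planned.

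Gene names came from a RefSeq table of UCB_Xtro_10.0 by accession. That assembly differs from the design's build, so no coordinates are given. The brightest probe stood for a gene. Named were the 20 largest rises and falls that passed without overlap between groups, up to 5 passing genes per list, chosen targets and the 3 largest rises and falls without a match. Members, lists and rule were chosen with earlier results of these data known. A few genes chosen by this rule were left out of the text. Figures were drawn with matplotlib 3.10.9.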

Additional observations from a re-analysis of the deposited data

Results flagged for a closer look

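Among 156 groups of 4 arrays (control and S2 arrays separately, for the 75 named genes and 3 measures of array brightness), 9 held an array that stood apart from the other 3 by Dixon's criterion, and chance flags about 1 in 20. On control arrays, C-4 was high for cyp2f1 (2.95 against 2.56 to 2.59) and for rbm48 (2.90 against 2.54 to 2.57), both on cross-hybridising probes. C-3 was low for adh1a (2.46 against 3.04 to 3.13) and high for c4orf45 (-4.11 against -4.63 to -4.58). C-2 was high for lrp2 (0.91 against 0.46 to 0.51) and low for ampd1 (0.11 against 0.54 to 0.59). On S2 arrays, S2-2 was low for adh7 (0.35 against 0.55 to 0.57) and high for mlana (-1.35 against -1.52 to -1.49), and S2-4 was low for fbxo32 (-0.82 against -0.26 to -0.23).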

How the results depend on the processing

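The 71 named genes that passed kept their direction under every alternative except normexp, which also moved the median change of all probes by 0.18 with backgrounds as measured and by 0.12 with outlying ones replaced. With backgrounds as measured the sign turned for lrrc14b (0.36), ccdc24 (0.26), c4orf45 (0.19), cryga.1 (0.14), lrrd1 (0.11), stpg4 (0.10), ctrb1 (0.10), cnp (0.0878), gldn (0.0855), atp13a-like (0.0808), ift88 (0.042) and gucy2f (0.0283), and with outlying ones replaced for ccdc24 (0.11). The cause was not tested. The count of 1507 calls in S2 against control became 29 and 675 under these forms, 769 with array brightness as a covariate, 4079 with array weights, 852 on specific probes alone (fewer probes tested), 329 at adjusted p under 0.01, 706 without C-3 and S2-4 together (an alternative chosen after seeing the data), and 510 to 1610 with single arrays left out. Under the 11 other alternatives it lay between 1102 and 1941. Median scaling gave 717 higher among 1209 calls, against 724 among 1507. For S2 against S1, where the count was 0, it was 1 under median scaling, 1 with a trended robust prior, 2 with the filter at all 8 arrays, 2 on specific probes alone and 0 to 1 with single arrays left out. Same-numbered control and S2 arrays correlated in their deviations at 0.19, 0.08, 0.12 and 0.21, and the numbers were not taken as pairs, since 1 value is not over 0.1. As a hint from the data, every array correlated best with its own number except C-2, which was at 0.0857 with S2-3 and 0.0848 with S2-2. The same-numbered pairs with the highest values, C-1 with S2-1 and C-4 with S2-4, also share a slide. For these pairs number and slide cannot be told apart. With a replicate block 1178 probes and 57 of the 71 genes passed, and lrrd1, rnasek, por, acad8, angptl4, abcd3, me1, nr1h4, klb, oxt, gucy2f, vcan, krt78.3 and emilin3 did not (adjusted p up to 0.0783). Of the 20 largest falls 11 lie among the dimmest 7194 probes, where signal is closest to background.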
